A study of Homo sapiens with 6 samples.

Results

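The receptors for GM-CSF, interleukin 3 and erythropoietin, their kinase JAK2, the transcription factors STAT5A and STAT5B, and 3 genes that STAT5 switches on were followed in F36P cells after guide RNA targeting of HDAC7. The 10 genes were chosen by symbol for their place in this pathway: CSF2RA, IL3RA, CSF2RB, EPOR, JAK2, STAT5A, STAT5B, CISH, SOCS2 and PIM1. All 10 were found among the 16315 genes of the count table, and all 10 were among the 13841 genes tested, those with a mean of at least 1 CPM (read counts scaled to library size) over the 6 libraries. F36P is an established human leukaemia line that grows in GM-CSF or interleukin 3 and expresses erythroid genes. 3 libraries came from F36P cells transduced with sgHDAC7, a guide against the class IIa histone deacetylase gene HDAC7 (labelled HDAC7 knockout), and 3 from F36P cells transduced with sgNT, a non-targeting guide (labelled WT). Cells of both groups carried a puromycin resistance plasmid and had been kept in 1 µg/ml puromycin for 4 days before RNA extraction. The labels do not say whether the transduced cells were a pool or a clone, and they give no medium or cytokines.

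GM-CSF and interleukin 3 each bind an alpha chain of their own, CSF2RA or IL3RA, and then share the beta chain CSF2RB, which carries the signal. The erythropoietin receptor EPOR works as a homodimer and is needed for red cell formation. Both kinds of receptor hold JAK2 on their cytoplasmic tails, and JAK2 phosphorylates STAT5A and STAT5B, which bind DNA at palindromes written TTCNNNGAA and raise transcription of their targets. Among these targets CISH and SOCS2 feed back on the receptors, and PIM1 encodes a kinase that favours survival. Only messenger RNA was measured here, so receptor protein and phosphorylation are not part of these data.

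The promoters of 3 of the genes are shown because they hold matches to the STAT5 palindrome or, for EPOR, to the motif of the erythroid GATA factors. RefSeq sequences (GRCh38.p14) were at hand for 9 of the 10 genes, and the 250 bases before each RefSeq gene start were searched on both strands for TTCNNNGAA, which reads the same on either strand, and for the GATA motif AGATAA. The 2 motifs do not overlap in any window shown. GENCODE 29, which gives the gene positions below, starts these 3 genes further upstream than RefSeq does, by 57 bases for CISH, 169 for IL3RA and 28 for EPOR. Only the part of each window that lies before both starts is shown, and it holds every match found in the 3 windows. Capitals mark TTCNNNGAA in CISH (chr3:50611832-50612024, minus strand) and IL3RA (chrX:1336535-1336615, plus strand), and the GATA motif, read on the opposite strand as TTATCT, in EPOR (chr19:11384343-11384564, minus strand).
CISH: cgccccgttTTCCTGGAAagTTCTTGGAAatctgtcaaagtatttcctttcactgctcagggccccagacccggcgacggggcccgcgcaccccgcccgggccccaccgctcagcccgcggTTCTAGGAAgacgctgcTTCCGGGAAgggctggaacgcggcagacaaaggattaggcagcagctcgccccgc
IL3RA: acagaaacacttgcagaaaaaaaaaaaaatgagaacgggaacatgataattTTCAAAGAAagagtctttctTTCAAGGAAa
EPOR: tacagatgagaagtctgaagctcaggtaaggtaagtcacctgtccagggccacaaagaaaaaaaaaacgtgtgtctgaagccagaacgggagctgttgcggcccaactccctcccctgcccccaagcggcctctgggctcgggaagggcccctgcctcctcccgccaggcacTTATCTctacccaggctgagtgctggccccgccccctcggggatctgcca
The CISH window held 4 matches to TTCNNNGAA, beginning 241, 230, 129 and 112 bases before the RefSeq start (184, 173, 72 and 55 before the GENCODE start). The IL3RA window held 2, beginning 199 and 179 bases before the RefSeq start (30 and 10 before the GENCODE start). Of 35116 gene starts in the same table, 6.57% had at least 1 match in such a window, 0.356% had at least 2 and 5 had at least 4. The EPOR window held 1 GATA motif, 78 bases before the RefSeq start and 50 before the GENCODE start, and 9.17% of all such windows held at least 1. A match is a string of letters and not a measured binding site.

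The targeted gene checked the labels first. HDAC7 had 194.2, 239 and 246 CPM in sgHDAC7 replicates 1, 2 and 3, against 449.9, 460.4 and 462 CPM in sgNT replicates 1, 2 and 3 (log2 fold change -1.02 ± 0.09, edgeR adjusted p = 0.00139). The libraries held 10039693 to 12521195 counts each, so 3 counts equal 0.242 to 0.296 CPM, a floor for counting error only. All 19 erythroid marker genes of a fixed list were in the table, and together they took 19390 to 26801 CPM in sgHDAC7 and 13667 to 20344 CPM in sgNT. The largest part of this sum was HBG2, a haemoglobin chain gene, at 9070 to 13002 CPM in sgHDAC7 and 5658 to 9237 CPM in sgNT. TFRC, another marker, is also held in the list of other STAT5 target genes below. Both are named after their values were seen. Across all genes tested, 2.86% passed the edgeR test at an adjusted p under 0.05 (1.16% higher and 1.70% lower in sgHDAC7), and in 25.1% the 2 groups of libraries did not overlap. Replicate 1 stood apart from replicates 2 and 3 in both groups (chi-square per degree of freedom 7.74 to 15.4 for pairs with replicate 1, against 3.20 and 3.50 for the other pairs), so each gene is given by library. The labels name biological replicates and say nothing of separate cultures, so p-values measure only the spread between these libraries, which may be technical. HDAC7 messenger RNA thus remained at 0.495 times the sgNT level in cells labelled knockout.

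Among the 10 genes, 1 passed the edgeR test, CSF2RA, which was lower in sgHDAC7. The share of all genes called lower was 1.70%. The other 9 had log2 fold changes from -0.34 (SOCS2) to 0.39 (IL3RA). The median over the 10 genes was -0.18, beside -0.0016 over all genes tested, and 8 of 10 were below 0, against 50.3% of all genes. With total-count or DESeq2 size factor scaling in place of TMM, all 10 signs were unchanged and CSF2RA was again the single call. The groups did not overlap for 4 of the 10 genes, with 3 lower (CSF2RA, STAT5A, SOCS2) and 1 higher (IL3RA) in sgHDAC7, where 12.2% and 13.0% of all genes were separated in these directions.

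**Figure D1:**
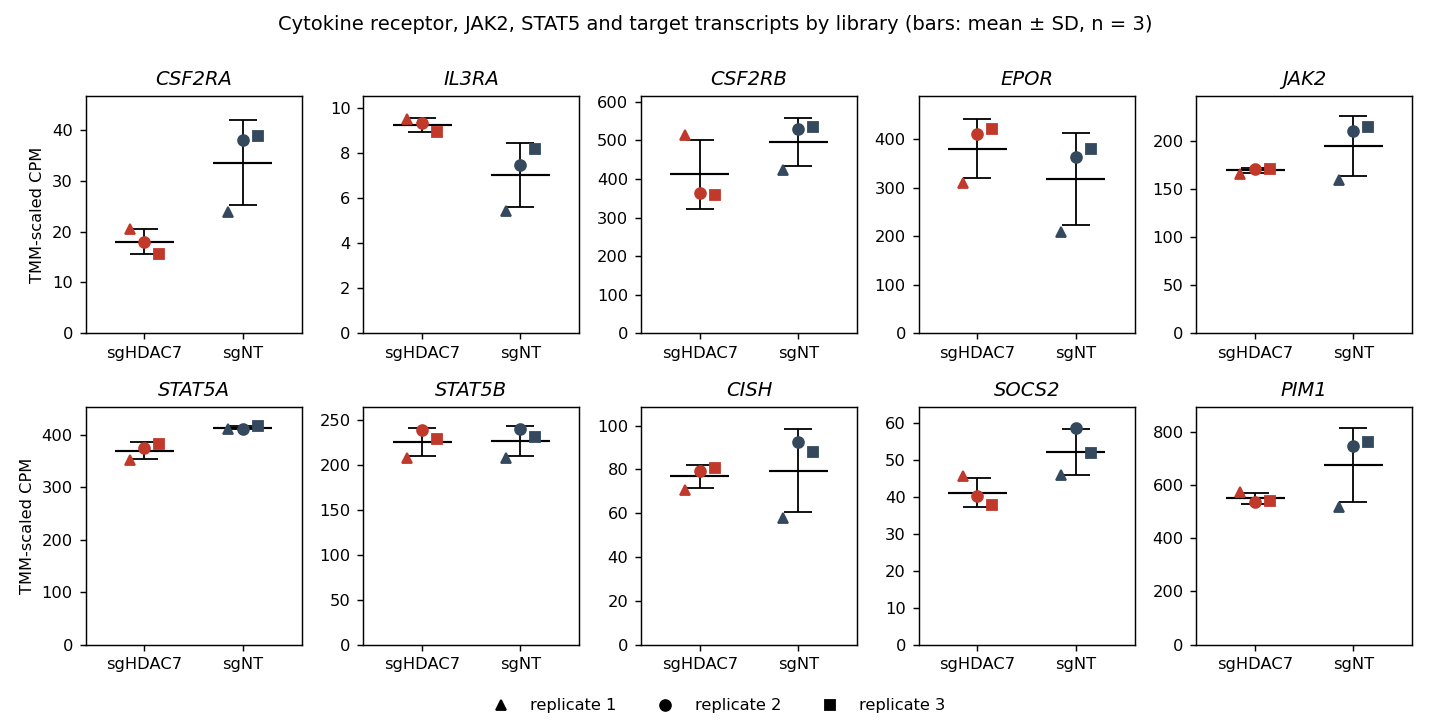
TMM-scaled CPM of the 10 genes in each library, with sgHDAC7 left of sgNT; triangles, circles and squares are replicates 1, 2 and 3, and black bars are mean ± SD of 3 libraries. Each vertical axis starts at 0. CSF2RA, STAT5A and SOCS2 were lower and IL3RA higher in every sgHDAC7 library, and the sgNT triangle is the lowest sgNT point for 9 of the 10 genes.

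CSF2RA (X:1268800-1310381, plus strand, GRCh38), the chain that binds GM-CSF and gives the receptor its specificity, had 20.5, 18.0 and 15.6 CPM in sgHDAC7 replicates 1, 2 and 3, against 23.9, 37.9 and 38.9 CPM in sgNT replicates 1, 2 and 3. All 3 sgHDAC7 libraries lay below all 3 sgNT libraries, with the smallest gap in replicate 1. The means were 18.0 ± 2.42 CPM in sgHDAC7 and 33.6 ± 8.37 CPM in sgNT (SD, n = 3 each), 1.87-fold lower in sgHDAC7. The log2 fold change was -0.90 ± 0.19 (SE; 95% interval -1.32 to -0.48; edgeR adjusted p = 0.0399). By exact permutation of the libraries (two-sided), p was 0.1, and no lower p is possible with 3 libraries per group. The call rested on nearly the full set of libraries. Leaving out sgNT replicate 1 kept it (log2 -1.09, edgeR adjusted p = 0.000261), and leaving out any other single library ended it (log2 -1.01 to -0.78, edgeR adjusted p = 0.0584 to 0.183). The fit without sgNT replicate 1, the lowest sgNT library for CSF2RA, called 1588 of the 13841 genes tested. DESeq2 and limma also called it (adjusted p = 0.000252 and 0.0473), and no other of the 10 genes, in fits that called 5.45% and 2.60% of all genes. So did a fit with the replicate number as a block, which called 7.21% of all genes (3.11% higher and 4.10% lower).

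CSF2RA is normally expressed on myeloid cells, and some myeloid markers were also lower in sgHDAC7. Of 10 monocyte and macrophage markers 3 were in the table (CD68, LYZ and ITGAM), and their sum was 126 to 131 CPM in sgHDAC7 and 159 to 165 CPM in sgNT. ITGAM, a myeloid integrin, had 29.3, 24.9 and 20.8 CPM in sgHDAC7 and 61.4, 38.9 and 43.7 CPM in sgNT (log2 -0.94 ± 0.18, adjusted p = 0.0305 by edgeR), while CD68 and LYZ overlapped between groups. ITGAM kept its call without replicate 1 of either guide, and lost it without any of the other 4 libraries. Granulocyte markers (3 of 10 in the table) summed to 11.4 to 12.2 CPM in sgHDAC7 and 14.3 to 16.4 CPM in sgNT. Most of this sum was CSF3R, a gene also held in the list of other cytokine receptors below. CSF3R was lower in every sgHDAC7 library but did not pass (log2 -0.23, edgeR adjusted p = 0.374). MPO and AZU1 were below the filter, and AZU1 overlapped between the groups. CSF3R, MPO and AZU1 are named after their values were seen. Summed markers of mast cells and basophils (1087 to 1803 CPM in sgHDAC7, 1130.4 to 1724 CPM in sgNT), megakaryocytes (587 to 735 CPM in sgHDAC7, 554 to 676 CPM in sgNT) and lymphoid cells (17.9 to 23.8 CPM in sgHDAC7, 20.7 to 30.8 CPM in sgNT) overlapped between the guides. Within these sums single genes did pass, and they are named after their values were seen. Of 7 megakaryocyte markers tested 2 were higher in sgHDAC7: PLEK, which encodes pleckstrin, at 78.0 ± 15.6 CPM in sgHDAC7, against 15.3 ± 4.91 CPM in sgNT (SD, n = 3 each; log2 2.36 ± 0.21, edgeR adjusted p = 0.00139), and TUBB1, a platelet tubulin (log2 0.71 ± 0.14, edgeR adjusted p = 0.0306). TUBB1 kept its call only without sgNT replicate 1, and PLEK kept it whichever library was left out. Of 19 erythroid markers 1 was higher, the haemoglobin chain gene HBD (log2 2.52 ± 0.22, edgeR adjusted p = 0.00139), also whichever library was left out. The other markers of these lists, CD14 and ELANE among them, are not analysed here, and the part of the marker levels in the CSF2RA result was not tested. In bulk RNA, fewer cells with a transcript and less of it in each cell cannot be told apart.

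IL3RA (X:1336616-1382689, plus strand), the interleukin 3 binding chain, had 9.50, 9.32 and 8.90 CPM in sgHDAC7 replicates 1, 2 and 3, against 5.44, 7.46 and 8.17 CPM in sgNT replicates 1, 2 and 3. Its libraries were thus higher in sgHDAC7 without overlap, opposite in direction to CSF2RA. The means were 9.24 ± 0.307 and 7.02 ± 1.42 CPM in sgHDAC7 and sgNT (SD, n = 3 each), and the log2 fold change of 0.39 ± 0.18 did not pass (95% interval -0.01 to 0.80, edgeR adjusted p = 0.277). It was the scarcest of the 10 genes, with 108 to 118 counts per sgHDAC7 library and 55 to 86 per sgNT library. CSF2RA and IL3RA are neighbours in the X chromosome's pseudoautosomal region, which has a copy on the Y chromosome. The table has 1 row for each, and the sources used here do not say how reads that match both copies were counted.

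CSF2RB (22:36913628-36940449, plus strand), the signalling chain shared by both receptors, had 515, 363 and 358 CPM in sgHDAC7 replicates 1, 2 and 3, against 424, 529 and 535 CPM in sgNT replicates 1, 2 and 3. It was higher in sgHDAC7 in replicate 1 and lower in replicates 2 and 3, so the groups overlapped. Means of 412 ± 89.4 CPM in sgHDAC7 and 496 ± 62.6 CPM in sgNT (SD, n = 3 each) put the log2 fold change at -0.27 ± 0.14 (95% interval -0.59 to 0.05, edgeR adjusted p = 0.349). On replicates 2 and 3 alone, CSF2RB was lower by log2 -0.56 (edgeR adjusted p = 6.27e-09), in a fit of 2 against 2 libraries that called 20.6% of all genes (9.72% higher and 10.9% lower). Replicates 2 and 3 were already known to be the closest libraries under each guide. That p therefore leaves out the larger spread seen with replicate 1, where CSF2RB went the other way.

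Ratios between chains within a library do not depend on library scaling. A set of 5 was computed, as counts per kilobase of exon, with results on these genes already known. CSF2RA over IL3RA was 1.27, 1.14 and 1.04 in sgHDAC7 replicates 1, 2 and 3, against 2.60, 3.01 and 2.81 in sgNT replicates 1, 2 and 3. All 3 sgHDAC7 libraries lay below all 3 sgNT libraries, which follows from CSF2RA being lower and IL3RA higher in every sgHDAC7 library, so no test is given for this ratio. The means were 1.15 ± 0.118 in sgHDAC7 and 2.81 ± 0.202 in sgNT (SD, n = 3 each), and the sgHDAC7 ratio was 0.409 times that of sgNT. That factor was 0.489 in replicate 1 and 0.374 in replicates 2 and 3. The factor between the guides does not depend on exon length, but the level of the ratio does: with all annotated transcripts setting the length, CSF2RA stood at 4.70 and IL3RA at 5.41 CPM per kb in sgHDAC7, against 8.76 and 4.11 CPM per kb in sgNT.

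The shared chain stood further above CSF2RA and less far above IL3RA in sgHDAC7. CSF2RB over CSF2RA was 14.9, 12.0 and 13.6 in sgHDAC7, against 10.5, 8.26 and 8.16 in sgNT, with no overlap (exact permutation p = 0.1, or 0.133 with Benjamini-Hochberg adjustment over the 4 ratios tested). CSF2RB over IL3RA was 19.0, 13.6 and 14.1 in sgHDAC7, against 27.3, 24.8 and 23.0 in sgNT, again with no overlap (exact permutation p = 0.1, adjusted 0.133). Unlike CSF2RB itself, these ratios kept their direction in replicate 1. For CSF2RB over CSF2RA that had to be so, since CSF2RB was higher and CSF2RA lower in sgHDAC7 in replicate 1. CSF2RA and IL3RA were already known to separate the guides, so these ratios add no independent test. EPOR over CSF2RB was 1.17, 2.21 and 2.29 in sgHDAC7 and 0.958, 1.34 and 1.38 in sgNT, and the groups overlapped (exact permutation p = 0.3, adjusted 0.3).

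**Figure D2:**
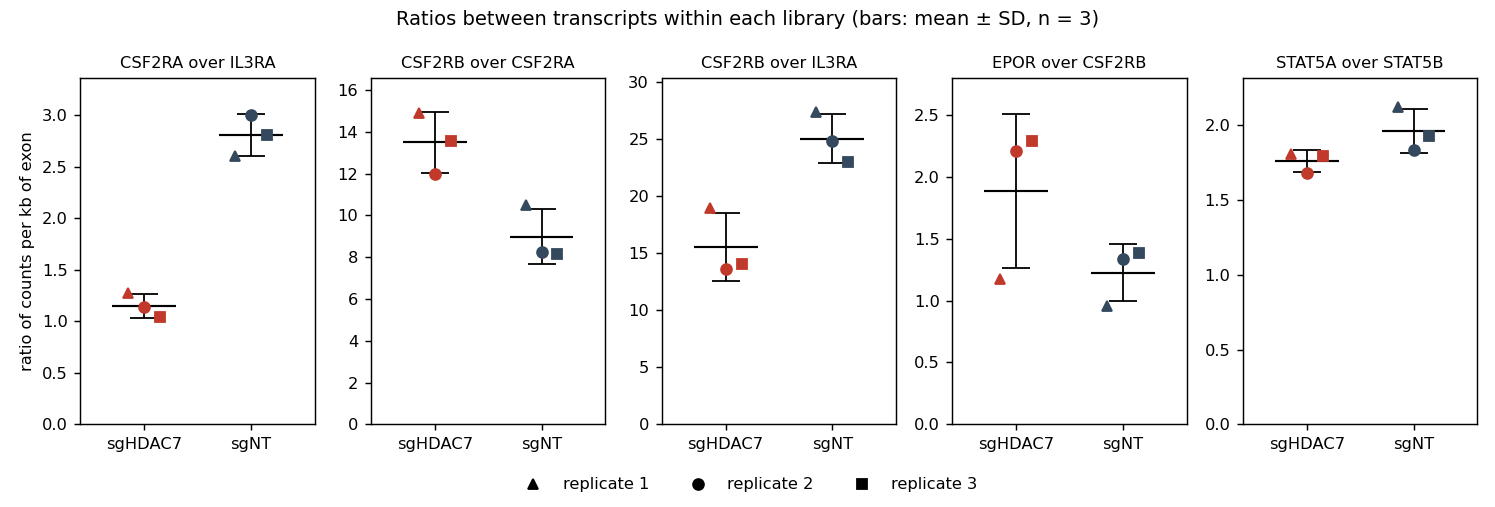
Ratios of counts per kilobase of exon between pairs of transcripts in each library, with sgHDAC7 left of sgNT; symbols are replicates and black bars are mean ± SD of 3 libraries. CSF2RA over IL3RA lies between 1.04 and 1.27 in the sgHDAC7 libraries and between 2.60 and 3.01 in the sgNT libraries.

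EPOR (19:11377205-11384342, minus strand) had 309.5, 411 and 419.7 CPM in sgHDAC7 replicates 1, 2 and 3, against 209, 363 and 379.6 CPM in sgNT replicates 1, 2 and 3. Each sgHDAC7 library was higher than the sgNT library of the same number, but replicate 1 was low under both guides and the groups overlapped. The means were 380.1 ± 61.2 CPM in sgHDAC7 and 317 ± 94.3 CPM in sgNT (SD, n = 3 each; log2 0.26 ± 0.20, 95% interval -0.19 to 0.71, edgeR adjusted p = 0.524). EPOR was the only 1 of the 10 genes called higher once a term for replicate 1 was added to the fit (log2 0.29, edgeR adjusted p = 0.023). That fit called 5.78% of all genes higher. It also called 9 of the 19 erythroid markers higher and 0 lower, and the part of these markers in the EPOR result was not tested.

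JAK2 (9:4984390-5128183, plus strand), the kinase of all these receptors, had 166, 171 and 171 CPM in sgHDAC7 replicates 1, 2 and 3, against 159, 210.2 and 215 CPM in sgNT replicates 1, 2 and 3. The sgHDAC7 libraries lay close together, inside the range of sgNT. JAK2 averaged 169.6 ± 2.83 CPM in sgHDAC7 and 195 ± 30.9 CPM in sgNT (SD, n = 3 each; log2 -0.20 ± 0.11, 95% interval -0.44 to 0.03, edgeR adjusted p = 0.334). Without sgNT replicate 1 it was called lower (log2 -0.33, edgeR adjusted p = 0.00445). That omission takes away the lowest sgNT library for JAK2, and the fit called 1588 of the 13841 genes tested, against 396 with all libraries.

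STAT5A (17:42287547-42311943, plus strand) and STAT5B (17:42199168-42276707, minus strand) lie next to each other and encode closely related factors. STAT5A had 351, 375 and 383 CPM in sgHDAC7 replicates 1, 2 and 3, against 412, 411 and 417 CPM in sgNT replicates 1, 2 and 3. It was a little lower in every sgHDAC7 library, averaging 369.7 ± 16.3 CPM against 413 ± 2.93 CPM in sgNT (SD, n = 3 each). The log2 fold change of -0.16 ± 0.06 had a 95% interval of -0.30 to -0.03 but did not pass after adjustment over all genes (edgeR adjusted p = 0.183). STAT5B had 208, 239 and 229 CPM in sgHDAC7, against 208, 240.3 and 231 CPM in sgNT. Its log2 fold change was -0.0087 ± 0.08 with a 95% interval of -0.18 to 0.17 (edgeR adjusted p = 0.968), and the 2 groups overlapped nearly in full. STAT5A over STAT5B was 1.81, 1.68 and 1.79 in sgHDAC7 and 2.12, 1.83 and 1.93 in sgNT, separated by a gap smaller than the spread within either group (exact permutation p = 0.1, the lowest possible, adjusted 0.133). STAT5A was already known to separate the guides, so this ratio adds no independent test. Of all 50-base stretches of the STAT5A transcripts, 10.55% also occur in STAT5B. A read lying wholly within shared sequence could not be placed between the 2 genes, and how any such reads were counted is not known.

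CISH (3:50606490-50611831, minus strand), an inhibitor that blocks STAT5 docking on the receptor, had 70.7, 79.1 and 80.6 CPM in sgHDAC7 replicates 1, 2 and 3, against 57.7, 92.7 and 88.2 CPM in sgNT replicates 1, 2 and 3. The sgHDAC7 libraries lay inside the sgNT range. The log2 fold change was -0.05 ± 0.15, and its 95% interval of -0.40 to 0.29 is wide enough to hold moderate changes either way (edgeR adjusted p = 0.89). CISH, the gene with 4 matches to TTCNNNGAA in the window shown above, was not among the genes called. Its exons overlap those of MAPKAPK3 on the other strand over 4.81% of their length, and MAPKAPK3 itself differed by log2 0.04.

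SOCS2 (12:93569814-93583487, plus strand), a suppressor of cytokine signalling, had 45.4, 40.1 and 37.6 CPM in sgHDAC7 replicates 1, 2 and 3, against 46.0, 58.4 and 51.7 CPM in sgNT replicates 1, 2 and 3. The groups did not overlap, but the replicate 1 values nearly touched. The means of 41.1 ± 3.97 CPM in sgHDAC7 and 52.0 ± 6.24 CPM in sgNT (SD, n = 3 each) gave log2 -0.34 ± 0.11 (95% interval -0.59 to -0.09, edgeR adjusted p = 0.13). With the replicate 1 term SOCS2 was called lower (log2 -0.34, edgeR adjusted p = 0.0481), where 6.81% of all genes were. The antisense gene SOCS2-AS1 shares 3.83% of the exon bases and had at most 1.80 CPM in any library.

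PIM1 (6:37170203-37175426, plus strand) had 573, 537 and 541 CPM in sgHDAC7 replicates 1, 2 and 3, against 516, 748 and 763 CPM in sgNT replicates 1, 2 and 3. As with JAK2 and CSF2RB, replicates 2 and 3 were lower in sgHDAC7 and replicate 1 was not. The means were 550.3 ± 19.9 CPM in sgHDAC7 and 676 ± 138 CPM in sgNT (SD, n = 3 each; log2 -0.30 ± 0.13, 95% interval -0.59 to -0.0062, edgeR adjusted p = 0.249). PIM1 was called lower without sgNT replicate 1 (log2 -0.46, edgeR adjusted p = 0.000519). That omission takes away the lowest sgNT library for PIM1, and the fit called 1588 of the 13841 genes tested, against 396 with all libraries.

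The position of replicate 1 differed between the genes and the guides. In sgNT, replicate 1 was the lowest library for 9 of the 10 genes, STAT5A being the exception, against 39.5% of all genes. In sgHDAC7, replicate 1 was the highest library for 5 genes (CSF2RA, CSF2RB, IL3RA, SOCS2 and PIM1; 36.2% of all genes) and the lowest for the other 5 (38.3%). Between the replicate 1 libraries the median log2 ratio of the 10 genes was 0.11 and 4 of 10 were below 0, against 50.9% of all genes. Between replicates 2 and 3 the median was -0.25 and 8 of 10 were below 0, against 49.3%. CSF2RB, JAK2, CISH and PIM1 had opposite signs in the 2 sets, 4 of 10 genes, close to the 38.5% of all genes that did. A fit with a term for replicate 1 called 3 of 10 genes (CSF2RA and SOCS2 lower, EPOR higher; 12.6% of all genes), and replicates 2 and 3 alone called 6 (CSF2RA, CSF2RB, JAK2, SOCS2 and PIM1 lower, EPOR higher; 20.6%). The fit on replicates 2 and 3 alone keeps the closest libraries and leaves out the spread seen with replicate 1. The term assumes 1 guide difference for all replicates, which the 4 genes of opposite sign did not show. The 3 genes called with the term kept their sign, but the size of the difference varied. The log2 ratios were -0.22 (CSF2RA), -0.017 (SOCS2) and 0.57 (EPOR) in replicate 1, against -1.17, -0.49 and 0.16 in replicates 2 and 3. IL3RA, STAT5A, STAT5B and CISH were called neither with the term nor on replicates 2 and 3 alone.

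**Figure D3:**
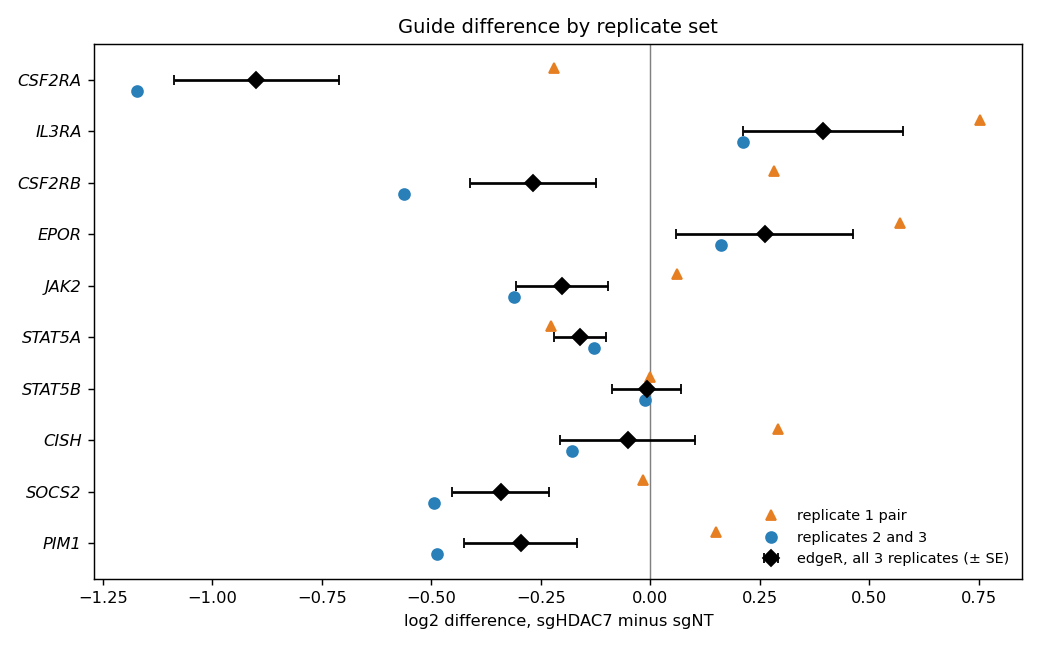
Log2 difference of sgHDAC7 minus sgNT for the 10 genes: black diamonds are the edgeR estimate over 3 against 3 libraries with its SE, orange triangles the replicate 1 pair and blue circles the means of replicates 2 and 3. CSF2RA lies at -0.22 in replicate 1 and at -1.17 in replicates 2 and 3, and IL3RA and EPOR lie above 0 in both.

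Levels of different genes were compared per kilobase of exon, using the union of exons in the GENCODE 29 basic set. PIM1 was the most abundant of the 10, at 208 ± 7.50 CPM per kb in sgHDAC7 and 255 ± 52.2 CPM per kb in sgNT (SD, n = 3 each). EPOR followed at 152 ± 24.4 and 127 ± 37.6 CPM per kb in sgHDAC7 and sgNT, then CSF2RB at 84.4 ± 18.3 and 102 ± 12.8, and STAT5A at 77.6 ± 3.43 and 86.7 ± 0.615 CPM per kb. EPOR and CSF2RB overlapped between libraries in sgNT and were separate in sgHDAC7. CSF2RB and STAT5A overlapped under both guides. STAT5B, JAK2 and CISH formed the middle, with 32.1 to 44.1 CPM per kb in sgHDAC7 and 35.7 to 44.4 CPM per kb in sgNT, and JAK2 and CISH did not differ beyond their spread under either guide. At the low end stood SOCS2 at 6.55 ± 0.633, CSF2RA at 6.23 ± 0.836 and IL3RA at 5.41 ± 0.180 CPM per kb in sgHDAC7, neighbours whose libraries overlapped. In sgNT, CSF2RA stood at 11.6 ± 2.90, SOCS2 at 8.29 ± 0.995 and IL3RA at 4.11 ± 0.830 CPM per kb, with IL3RA below SOCS2 in every library. By these counts, both ligand-binding chains were an order of magnitude scarcer than EPOR and, for IL3RA, than CSF2RB. CSF2RA and IL3RA also have a copy on the Y chromosome. How reads matching both copies were counted is not known, so the levels of these chains may be too low. The order depends on which transcripts set the length: counted over all annotated transcripts, which are longer, CISH stood below JAK2 under both guides, and CSF2RA stood below IL3RA in sgHDAC7 but not in sgNT.

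The rest of the pathway was described through 6 lists, of which 107 genes were tested: 1 was higher and 4 were lower in sgHDAC7 (1.16% and 1.70% of all genes tested), with a median log2 fold change of -0.07. The ligand list (4 of 9 genes tested) had no call, and its highest CPM was that of LIF, with 51.6 ± 9.22 CPM in sgHDAC7, against 60.2 ± 14.4 CPM in sgNT (SD, n = 3 each). CPM in these lists was not divided by exon length, so it does not rank genes by transcript abundance. CSF2, IL3 and EPO are not analysed here. Of 22 genes tested in the list of other cytokine receptors, none passed the edgeR test. With the replicate 1 term 3 were lower, in a fit that called 6.81% of all genes lower. The highest CPM in this list was that of LEPR, the leptin receptor, with 494 ± 36.6 CPM in sgHDAC7, against 542 ± 82.0 CPM in sgNT (SD, n = 3 each). Among the other JAK kinases and STATs, 7 were tested and none passed. The highest mean CPM over the 6 libraries was that of STAT3, at 210.1 ± 7.32 CPM in sgHDAC7, against 230.3 ± 8.44 CPM in sgNT (SD, n = 3 each; log2 -0.13), without overlap between the groups. TYK2, whose mean CPM was above that of STAT3 in sgHDAC7, had 217 ± 4.15 CPM in sgHDAC7, against 213 ± 3.18 CPM in sgNT (SD, n = 3 each; named after its values were seen). JAK1, also named after its values were seen, had log2 -0.11 and lower values in all 3 sgHDAC7 libraries.

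Adaptors and signalling proteins at the receptors held 3 of the 5 calls among 33 genes. SH2B3, the adaptor LNK that restrains JAK2 and cytokine receptors, had 101, 102 and 96.2 CPM in sgHDAC7 replicates 1, 2 and 3, against 128, 175 and 185 CPM in sgNT replicates 1, 2 and 3 (log2 -0.70 ± 0.12, edgeR adjusted p = 0.0226). PIK3CA, a catalytic subunit of phosphoinositide 3-kinase, fell (log2 -0.39 ± 0.07, edgeR adjusted p = 0.0236), and PIK3R2, a regulatory subunit, rose (log2 0.52 ± 0.10, edgeR adjusted p = 0.0275). Both PI3K genes moved by similar amounts in replicate 1 (-0.42 and 0.54) and in replicates 2 and 3 (-0.38 and 0.51). SH2B3 and PIK3CA kept their calls only when sgNT replicate 1 was the library left out, and PIK3R2 also without sgHDAC7 replicate 1.

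Of 20 genes tested in the list of JAK and STAT inhibitors, PTPRC was the single call. It encodes CD45, a phosphatase that acts on JAK and SRC family kinases, and had 321, 289 and 286 CPM in sgHDAC7 replicates 1, 2 and 3, against 439, 426 and 410.3 CPM in sgNT replicates 1, 2 and 3. The guides were separated by log2 -0.45 in replicate 1 and by -0.54 in replicates 2 and 3, and by -0.51 ± 0.07 in the fit of all libraries (edgeR adjusted p = 0.00836). PTPRC kept its call in 3 of 6 omissions of a single library. SOCS1 and SOCS3, named after their values were seen, had log2 fold changes of -0.32 and -0.30 and did not pass.

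Among 22 other STAT5 target genes 1 fell, XBP1, at 103, 97.4 and 97.9 CPM in sgHDAC7 replicates 1, 2 and 3, against 146, 169 and 164 CPM in sgNT replicates 1, 2 and 3 (log2 -0.69 ± 0.07, edgeR adjusted p = 0.00275). XBP1 is best known for its role in the unfolded protein response, and it kept its call whichever library was left out. The median of the list was -0.17 in the fit of all libraries, close to that of the 10 genes. Between the replicate 1 libraries the list median was -0.039, against 0.11 for the 10 genes, so the signs differed. Between replicates 2 and 3 it was -0.17, against -0.25. MYC, BCL2L1, MCL1 and PIM2, classic growth and survival targets named after their values were seen, had log2 fold changes of -0.31, -0.16, 0.01 and -0.05, and none passed the main edgeR test. MYC was lower in all 3 sgHDAC7 libraries. It was called by DESeq2 (adjusted p = 0.0372) and by edgeR with the replicate block (0.0135) or the replicate 1 term (0.00185). These fits called 5.45%, 7.21% and 12.6% of all genes. BCL2L1, MCL1 and PIM2 were called in none of them, and limma did not call MYC (adjusted p = 0.105). With the replicate 1 term, 7 genes of this list were lower and 1 was higher, where 6.81% of all genes were lower and 5.78% higher.

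**Figure D4:**
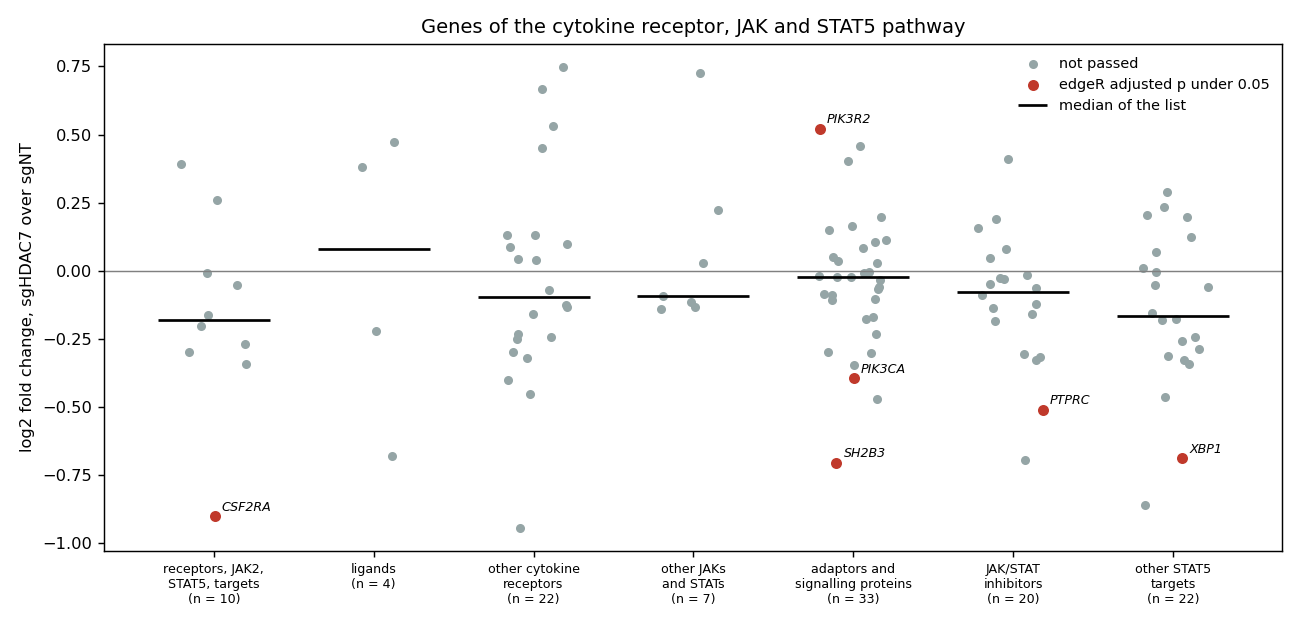
Log2 fold change of sgHDAC7 over sgNT for the 10 genes (left) and for the tested genes of 6 further pathway lists; each point is a gene, red points passed the edgeR test at an adjusted p under 0.05, and black lines are list medians. The 6 red points are CSF2RA, PIK3R2, PIK3CA, SH2B3, PTPRC and XBP1, of which PIK3R2 alone is above 0.

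The genes whose levels followed CSF2RA most closely were sought among 10911 others with a mean of at least 5 CPM. By Pearson correlation of log2(CPM + 0.5) over the 6 libraries they were RCN1, SLC38A2, CNOT8, NORAD and H4C14 (r = 0.993 to 0.997). SLC38A2, an amino acid transporter, was the only 1 of the 5 that passed the edgeR test (log2 -1.09, adjusted p = 0.0249). For EPOR they were HDGF, MFSD3, MAN1B1, TSPAN17 and APLNR (r = 0.995 to 0.997), none of which passed, with log2 fold changes of 0.05 to 0.51. With 6 libraries that share the same guide and replicate structure, these values are a description.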

How the data were processed

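Messenger RNA was sequenced in 6 libraries of F36P cells, 3 with sgHDAC7 and 3 with sgNT. Per the labels' protocols, poly-T beads captured the messenger RNA and random hexamers primed the copies. The authors deposited 1 table of whole-number read counts per gene, although its name says CPM: 100% of the values are whole and the column totals differ. The submitters' processing notes name hg38 and edgeR 3.32.1 without a role for either. The sources used here give no aligner, counter, annotation or strand setting. Columns named NC were taken as sgNT, the only other group. The table has 0 further columns of values.

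Counts were fitted with edgeR 4.0.16 in R 4.3.3 (quasi-likelihood, TMM factors, a model of group only, two-sided) for 13841 genes averaging at least 1 CPM, with Benjamini-Hochberg adjustment over all of them and a threshold of 0.05. CPM values are TMM-scaled, and intervals of log2 fold changes are 95% intervals from the fit's standard error. Alternatives were DESeq2 1.42.0, limma 3.58.1 on log2(CPM + 0.5), other scalings and filters, the replicate number as a block, a term for replicate 1, replicates 2 and 3 alone, and each library left out. Scripts were tested on simulated data. Gene positions and exon lengths come from GENCODE 29 (GRCh38). The genes, lists, alternatives and ratios were chosen with earlier results of these data known. The text names the 10 genes, HDAC7, up to 4 genes per list with the smallest adjusted p under 0.05 (or the gene with the highest CPM where none passed), and the 5 genes most like CSF2RA and EPOR. Others are said to be named after their values were seen. The receptor list also holds TSLP, a ligand, which was below the filter, and TFR2, a transferrin receptor, which was tested and not called. The inhibitor list also holds DUSP, SPRED and SPRY genes, which act mainly on RAS and MAP kinase signalling.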

Additional observations from a re-analysis of the deposited data

How the results depend on the processing

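Without one library at a time the number of the 10 genes called ran from 0 to 4, the number of genes called in the 6 pathway lists from 1 to 21 (5 with all libraries), and that over all genes from 27 to 1588 (396 with all libraries). Leaving out sgNT replicate 1 gave the highest of each. Leaving out any other library left none of the 10 genes called, and leaving out sgHDAC7 replicate 2 gave the 27 over all genes. Fewer libraries enter such a fit. A term for replicate 1 gave 3, 27 and 1743, and replicates 2 and 3 alone gave 6, 40 and 2847. DESeq2 called 1 of the 10 genes, 10 in the lists and 711 in all. The cause of that difference was not tested. Other scalings, filters and limma called CSF2RA alone of the 10, 5 in the lists, and 360 to 409 in all. Among single genes only STAT5B and CISH, whose log2 fold changes are near 0, changed sign, with ranges of -0.0664 to 0.0371 and -0.236 to 0.0734 when single libraries were left out. No level per length moved by more than 1 SD with another scaling. The exact permutation p of CSF2RA was 0.1 or 0.2 throughout, and this design cannot pass 0.05.

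Same-numbered libraries of the 2 guides deviated together in replicate 1 (r = 0.303) and weakly in replicates 2 and 3 (0.107 and 0.0968). Replicate 1 thus stood apart under both guides together. Replicates 2 and 3 of sgHDAC7 each correlated better with the other number of sgNT (0.159 and 0.155), so the numbers were not taken to pair the full set of samples. With the number as a replicate block, 1 of the 10 genes was called (CSF2RA, log2 -0.88, edgeR adjusted p = 0.0227), 18 in the lists and 998 in all. IL3RA, with 55 to 118 counts per library, had the least depth of the 10 genes.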
